A study of Mus musculus with 2 samples.

Results

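The genes of DNA replication and mitosis examined here are 48 of the 21670 protein-coding genes annotated on the autosomes and X of the mouse. They were taken by name: 24 act in DNA replication and 24 in mitosis, and all 48 symbols matched the annotation. Each gene was scored for accessible chromatin at its promoter, meaning a region whose summit lies within 1 kb of one of its transcription start sites (TSS), and for distal regions, which lie farther than that from every protein-coding TSS and were given to the gene with the nearest one. Chromatin accessibility had been measured by ATAC-seq, in which the Tn5 transposase cuts open DNA, in granulocyte monocyte progenitors (GMP), the bone marrow precursors of neutrophils and monocytes. The 2 samples are biological replicates of 1 group, each from 50000 cells of adult male C57BL/6J mice 5 to 6 weeks old, with no treatment or genetic change in the labels. They carry separate biosample identifiers but the same donor label, and neither the sort nor whether the cells came from separate animals is stated. Per the labels replicate 1 was read on 2 instrument models, and none is named for replicate 2. With 1 group there is no comparison between conditions, genes are not replicates of one another, and no test was run: counts and medians of the gene lists are set beside the same over all genes.

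A cell copies its DNA in S phase and divides the copies in mitosis. Origins are licensed by loading the MCM helicase, which is then activated by CDC45 and the GINS complex so that polymerases can extend both strands. In mitosis, cyclin-dependent and Aurora kinases drive condensed chromosomes onto a spindle, and a checkpoint holds back separase until every kinetochore is attached. Transcription of replication genes is known to rise at the entry into S phase through E2F sites, and that of mitosis genes later, through a 6-letter element called the cell cycle genes homology region (CHR) that is bound by the MuvB complex, often beside CCAAT boxes bound by NF-Y. GMP are progenitors that divide as they mature, and both sets of genes serve that division.

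The list scored is the conservative list of the whole series, made from both replicates' reads, which holds 75129 merged regions on these chromosomes, of which 15564 are promoter and 59565 distal regions. Each replicate's own list is shorter, with 65406 regions in replicate 1 and 53670 in replicate 2. Fold enrichment of a region is a value the authors computed, against a denominator that no source used here states, so it serves to rank regions within a list and folds of different lists are not on 1 scale. The percentile of a promoter is its rank by fold among the open promoters of all genes in the same list. Of 15 genes that mark GMP, 14 had an open promoter, the exception being Prtn3, and of 14 markers of other lineages 2 did, Pax5 and Itga2b, while 61.4% of all genes did. In the looser replicated list 15 of the 15 and 10 of the 14 were open, beside 69.2% of all genes, so in that list the markers of other lineages do not stand below all genes.

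Sequences are shown for 6 promoters, because the lists are compared by such letters after the accessibility values. They are examples, not the promoters of highest fold and not typical of the lists. Espl1 (fold 17.7), Nusap1 (17.1) and Prc1 (16.9), which also hold CCAAT and CHR, ranked above the 3 mitosis genes shown. Cdc6 (13.6), Mcm3 (13.4) and Pole (11.8), which also hold E2F letters, ranked above Mcm5 (11.2). Each runs 5′ to 3′ on the gene's own strand over the 250 bp before the TSS in GRCm38 (mm10), and positions count back from the TSS. In the first 3, all from mitosis genes, and in the last, capitals mark CCAAT (or ATTGG on the other strand) and the CHR letters TTTGAA (or TTCAAA). In Pola1 and Mcm5, capitals mark E2F letters only, searched on both strands as TTTCCCGC, TTTGGCGC, TTTGCCGC or TTTCGCGC.
Ccnb2 chr9:70421548-70421797, minus strand: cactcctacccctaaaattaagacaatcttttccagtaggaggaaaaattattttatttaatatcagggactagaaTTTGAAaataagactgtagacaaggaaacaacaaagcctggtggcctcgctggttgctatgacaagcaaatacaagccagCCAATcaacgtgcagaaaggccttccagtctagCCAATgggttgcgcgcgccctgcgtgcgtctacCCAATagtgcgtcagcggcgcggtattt
Top2a chr11:99024190-99024439, minus strand: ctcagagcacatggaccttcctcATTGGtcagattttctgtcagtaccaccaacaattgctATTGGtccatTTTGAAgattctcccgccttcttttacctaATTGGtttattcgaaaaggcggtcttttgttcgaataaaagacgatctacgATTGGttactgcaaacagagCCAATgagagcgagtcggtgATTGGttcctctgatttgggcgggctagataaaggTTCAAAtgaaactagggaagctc
Kif11 chr19:37376153-37376402, plus strand: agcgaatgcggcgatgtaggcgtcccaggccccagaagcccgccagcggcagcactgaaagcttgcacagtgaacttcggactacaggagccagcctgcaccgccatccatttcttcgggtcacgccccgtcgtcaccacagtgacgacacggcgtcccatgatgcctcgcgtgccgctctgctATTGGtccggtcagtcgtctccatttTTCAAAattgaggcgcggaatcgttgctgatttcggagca
Pola1 chrX:93632156-93632405, minus strand: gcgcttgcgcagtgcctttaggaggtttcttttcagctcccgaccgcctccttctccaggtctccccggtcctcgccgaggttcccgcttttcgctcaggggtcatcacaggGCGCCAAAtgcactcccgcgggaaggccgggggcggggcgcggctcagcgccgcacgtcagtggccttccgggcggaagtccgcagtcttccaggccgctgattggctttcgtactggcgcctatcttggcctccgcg
Mcm5 chr8:75109319-75109568, plus strand: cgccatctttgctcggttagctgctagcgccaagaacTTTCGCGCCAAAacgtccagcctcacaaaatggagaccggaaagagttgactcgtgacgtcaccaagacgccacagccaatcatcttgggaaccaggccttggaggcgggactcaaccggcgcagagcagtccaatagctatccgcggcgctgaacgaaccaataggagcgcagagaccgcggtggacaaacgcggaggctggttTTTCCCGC
Mcm2 chr6:88898781-88899030, minus strand: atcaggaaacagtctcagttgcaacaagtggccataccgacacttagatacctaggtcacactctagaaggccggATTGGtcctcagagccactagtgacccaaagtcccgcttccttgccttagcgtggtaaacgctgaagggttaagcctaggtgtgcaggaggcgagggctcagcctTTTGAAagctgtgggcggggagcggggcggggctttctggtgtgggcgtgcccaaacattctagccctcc

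In Ccnb2, which encodes cyclin B2, 3 CCAAT boxes start 94, 61 and 28 bp before the TSS, at an even step of 33 bp, and a second CHR match that starts 3 bp before the TSS runs past the end of the printed stretch. Top2a, which encodes the topoisomerase that untangles chromosomes, has 6 CCAAT boxes on 1 strand or the other and CHR matches at 179 and 23 bp before the TSS. Kif11, the motor that pushes spindle poles apart, has 1 of each, at 66 and 40 bp. Pola1, the catalytic subunit of the polymerase that starts new strands with primase, has its E2F match 138 bp before the TSS. Mcm5, a subunit of the helicase, has a pair of overlapping E2F matches at 213 and 209 bp and another that ends just before the TSS. Mcm2 is the replication gene with the CHR letters, 70 bp before its TSS.

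All 48 genes had an open promoter in the series-level list, where 61.4% of all genes did. The same 48 were open in the list of replicate 1 (60% of all genes) and in that of replicate 2 (56.6%), so none of them was missing from either replicate, against 56.1% of all genes open in both. In all 48 the region of each replicate overlapped the series-level region. A CpG-rich promoter, with an observed over expected CpG ratio of at least 0.6 in the 300 bp from 250 before to 50 after the TSS, was present in 19 replication and 22 mitosis genes, and in 48.5% of all genes. Of all genes with such a promoter 90.2% were open. The count of open promoters is read against the higher of these backgrounds, and is near it.

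Among the open promoters, the mitosis genes ranked higher by fold than the replication genes. The median fold was 14.0 over the 24 mitosis genes (range 8.31 to 17.7) and 11.2 over the 24 replication genes (range 6.11 to 16.6), beside 10.2 over the 13251 other open genes. In percentiles the medians were 85.4 for mitosis and 61.6 for replication, against 49.9 for the others. Each replicate gave the same order: 81.6 and 55.2 in replicate 1, and 85.9 and 66.3 in replicate 2. The 25% of open promoters with the highest fold included 13 mitosis and 9 replication genes. The 25% with the lowest fold included 5 replication genes and no mitosis gene. The larger lists of other genes of the same processes did not show this order, with median percentiles of 71.7 for 42 other replication genes and 71.9 for 76 other mitosis genes. Whether the lists differ beyond chance was not tested.

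**Figure D1:**
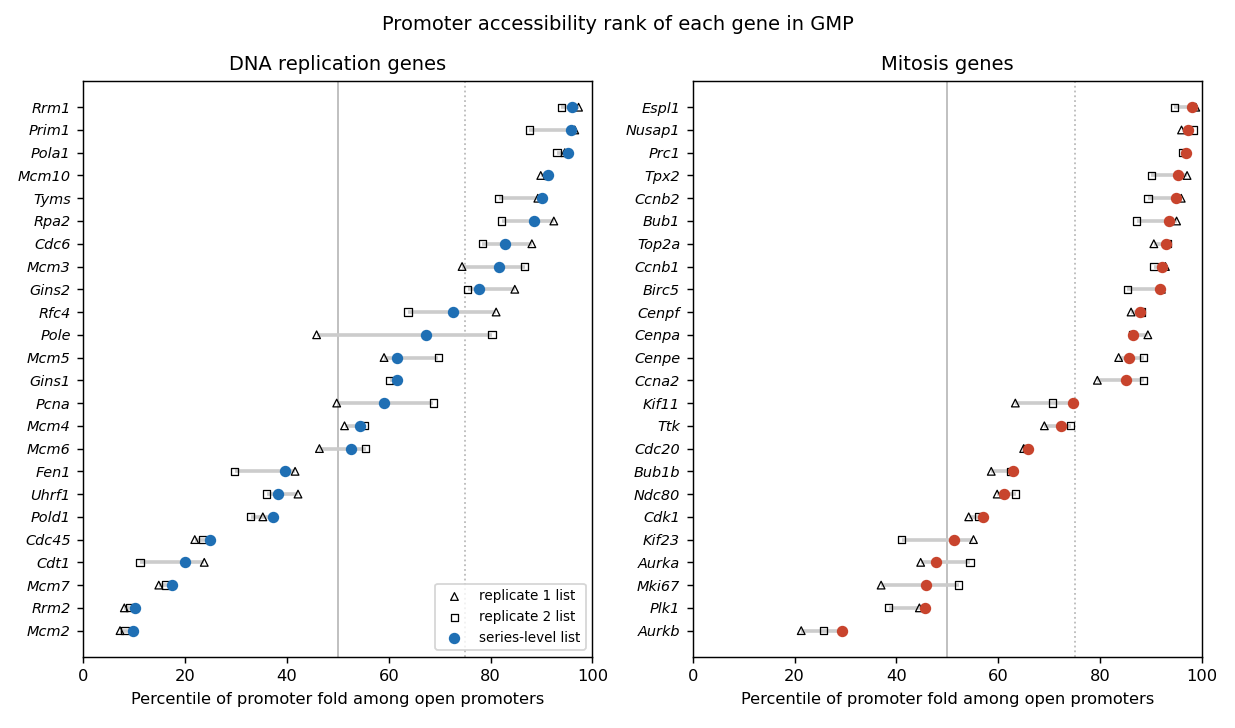
Percentile of each gene's promoter fold among the open promoters of all genes, for the DNA replication genes (left, blue) and the mitosis genes (right, red), with filled circles for the series-level list, triangles for replicate 1 and squares for replicate 2, a grey line at the 50th and a dotted line at the 75th percentile. The mitosis genes crowd to the right, with 13 of 24 past the 75th percentile and Aurkb lowest at 29.3, while the replication genes spread from Mcm2 at 9.78 to Rrm1 at 96.0, and Pole shows the widest gap between replicates.

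**Figure D2:**
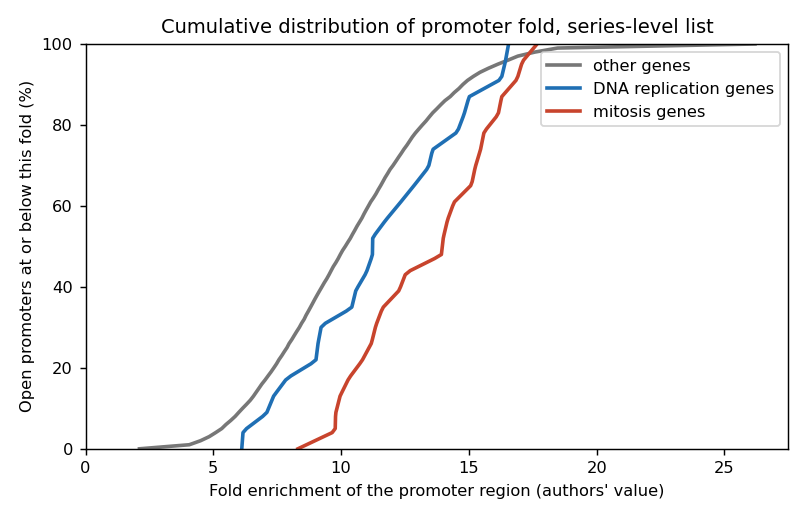
Cumulative share of open promoters (percent, y axis) at or below a given fold enrichment in the series-level list (authors' ratio, x axis), for the 24 replication genes (blue), the 24 mitosis genes (red) and the other open genes (grey). The red curve starts at 8.31 and lies to the right of the grey one at its median (14.0 against 10.2), while the blue curve starts at 6.11 and runs between them over most of its length (median 11.2).

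The helicase core, MCM2 to MCM7, forms the ring that unwinds DNA at the fork, and its 6 promoters had a median fold of 10.5. They spread widely. Mcm2 had a fold of 6.11 in the series-level list, 6.29 in replicate 1 and 5.70 in replicate 2, the lowest of all 48 genes in the series-level list. Mcm7 was next lowest of the ring, at 7.08, 7.33 and 6.55 in the same order of lists. Mcm3 was the highest of the ring at 13.4, 12.96 and 12.6. The ring holds 1 copy of each subunit, while their promoters ran from the 9.78th to the 81.7th percentile, and the low rank of Mcm2 and Mcm7 was seen in both replicates (7.21 and 8.20 for Mcm2, 14.8 and 16.1 for Mcm7).

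Origin licensing and helicase activation are served by 6 of the genes, with a median fold of 12.1. Mcm10, which helps to start the loaded helicase, had a fold of 15.01 in the series-level list, 15.1 in replicate 1 and 13.3 in replicate 2. Cdt1, which loads the helicase together with CDC6, had 7.36, 8.29 and 6.06, the fourth lowest fold among the replication genes. Cdc6 itself was well above its partner, at 13.6, 14.8 and 11.6. Gins1, a GINS subunit, was the promoter whose summit lay farthest from the TSS, 231 bp inside the gene, and its fold was 11.2, 11.7 and 10.02.

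The 8 polymerases and fork factors had a median fold of 12.04, and none was among the 25% with the lowest fold. Prim1, the catalytic subunit of primase, had a fold of 16.4 in the series-level list, 17.0 in replicate 1 and 12.7 in replicate 2. Pola1, its polymerase partner, had 16.3, 16.2 and 13.8. Rpa2, part of the complex that coats single-stranded DNA, had 14.5, 15.7 and 12.04. In the series-level list these 3 stood at the 95.8th, 95.3rd and 88.6th percentile. Pole, the catalytic subunit of the leading-strand polymerase, differed most between replicates of all 48 genes, at the 45.8th percentile in replicate 1 and the 80.3rd in replicate 2. Pcna, the sliding clamp, was near the middle with a fold of 11.0, 10.6 and 10.7.

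Among the nucleotide supply genes, promoter fold differed widely between the subunits of a single enzyme. Rrm1, the large subunit of ribonucleotide reductase, which makes the building blocks of DNA, had the highest fold of the replication genes: 16.6 in the series-level list, 17.4 in replicate 1 and 14.0 in replicate 2. Rrm2, the small subunit of the same enzyme, had the second lowest fold: 6.17, 6.46 and 5.81. The replicate values of the pair do not overlap, and their percentiles were 97.3 and 93.9 for Rrm1 against 8.05 and 9.13 for Rrm2. Tyms, which makes thymidylate, was again high at 14.8, 15.01 and 11.96. Uhrf1, which keeps DNA methylation through replication, had 9.10, 9.93 and 8.18.

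The 7 mitotic cyclins and kinases had the lowest median fold of the mitosis roles, 10.8, and held all but 1 of the 4 lowest mitosis genes. Aurkb, the kinase of the chromosomal passenger complex, was lowest at 8.31 in the series-level list, 8.07 in replicate 1 and 7.38 in replicate 2. Plk1, a kinase of mitotic entry and spindle assembly, had 9.77, 10.2 and 8.36. Aurka, the kinase of the spindle poles, had 9.96, 10.2 and 9.61. The cyclins of the same group stood above the kinases: Ccnb2 had 16.1, 16.8 and 13.04, and Ccnb1 and Ccna2 were at 15.2 and 13.9 in the series-level list. Cdk1, the kinase that these cyclins activate, was at 10.8, 11.0 and 9.73.

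The spindle checkpoint and anaphase genes, 5 in number, had a median fold of 12.3. Espl1, separase, which cuts the cohesin that holds sister chromatids, had the highest fold of the 48: 17.7 in the series-level list, 18.5 in replicate 1 and 14.2 in replicate 2. Bub1, a checkpoint kinase at the kinetochore, had 15.6, 16.4 and 12.7. Espl1 was at the 98.8th and 94.6th percentile in the replicates and Bub1 at the 95.04th and 87.2nd, while Bub1b, Cdc20 and Ttk of the same role had folds of 11.4, 11.6 and 12.3 in the series-level list.

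Centromere and kinetochore genes had a median fold of 14.2, and 4 of the 5 were among the 25% of open promoters with the highest fold. Cenpa, the histone H3 variant of centromeres, was at 14.2, and the kinetochore motor gene Cenpe and the kinetochore gene Cenpf were at 14.0 and 14.4. Ndc80, which grips microtubules, was the lowest at 11.2, and Birc5 the highest at 15.1. The 5 spindle and cytokinesis genes had the highest median of any role, 16.3. Nusap1, which bundles spindle microtubules, had a fold of 17.1 in the series-level list, 16.8 in replicate 1 and 15.8 in replicate 2. Prc1, which bundles the midzone of the late spindle, had 16.9, 17.3 and 14.8. Tpx2, an activator of Aurora A on the spindle, had 16.3, 17.3 and 13.2. Its own kinase Aurka thus ranked far below it, at the 47.8th percentile against the 95.3rd. Kif11 and Kif23, the motors of this role, had lower folds of 12.5 and 10.3.

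Of the 2 genes of chromosome structure, Top2a had a fold of 15.5, 15.2 and 13.8. Mki67, which encodes the proliferation marker Ki-67, a coat of mitotic chromosomes, had 9.79, 9.48 and 9.43. A widely used marker of dividing cells, it had the third lowest promoter fold of the mitosis genes.

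The replicates ranked the members similarly. The median difference in percentile between the replicates was 8.30 over the replication genes and 4.66 over the mitosis genes, with the largest differences at Pole (34.4) and Mki67 (15.2). The summit of the replicate's region lay a median of 5 bp from the series-level summit in the replication genes and 3 bp in the mitosis genes. In Rpa2 the summit of both replicates lay elsewhere than in the series-level list, by -108 and -125 bp in genome coordinates, and in Aurka that of replicate 1 was 322 bp away.

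By definition these summits lie within 1 kb of a TSS, and distances were taken to the TSS of the gene nearest the summit. The summit lay before the TSS in 23 mitosis and 17 replication genes, and in 70.5% of the other open genes. The share was 74.7% in the CpG-rich ones among them, 81.0% in the other replication genes and 73.7% in the other mitosis genes. The summit lay within 100 bp of the TSS in 19 genes of each list and in 62.6% of the others. In the same 3 backgrounds this share was 66.0%, 69.0% and 64.5%. Median widths were 998 bp for mitosis, 897 bp for replication and 880 bp for the others.

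Some promoters are shared. An opposite-strand TSS of another protein-coding gene lay within 1 kb of the promoter TSS in 5 replication genes (20.8%) and 2 mitosis genes (8.33%). The share was 10.8% over all genes and 18.9% in genes outside both lists with a CpG-rich promoter. It was 33.3% in the other replication genes and 31.6% in the other mitosis genes. Whether these shares differ beyond chance was not tested. The 5 replication genes are Mcm4 (with Prkdc, 489 bp away), Mcm7, Cdc45, Pole (with Pxmp2, 155 bp away) and Fen1. Of these Pole, Mcm4 and Fen1 have the highest folds, 11.8, 10.6 and 9.23. Fen1, a nuclease of the lagging strand, overlaps its neighbour Tmem258, whose TSS lies 155 bp off. The mitosis genes are Nusap1 (with Oip5, 248 bp away) and Aurka (with Cstf1, 146 bp away). The accessibility of such a region cannot be divided between the genes.

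Mitosis genes mostly carried the CHR letters and replication genes often the E2F letters. The CHR letters lay between 250 bp before and 50 bp after the TSS in 17 of 24 mitosis genes and in 1 of 24 replication genes, against 15.2% of all genes. The E2F letters showed the reverse, with 11 replication genes (Mcm3 to Mcm7, Cdc6, Cdt1, Gins1, Pola1, Pole and Uhrf1) and 1 mitosis gene, Cdk1, against 2.94% of all genes. CCAAT was common to both, in 21 mitosis and 18 replication genes, against 38.9% of all genes. CCAAT and CHR together were found in 16 mitosis genes and 1 replication gene, against 6.5% of all genes. At least 2 CCAAT boxes with a CHR were found in 10 mitosis genes and no replication gene (2.29% of all genes). Cdk1 alone had both E2F and CHR (0.36% of all genes). From 500 bp before to 100 bp after the TSS, 9 replication and 17 mitosis genes held both CCAAT and CHR, against 20.1% of all genes. A match is a description of letters and not a bound site, and no factor was measured.

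**Figure D3:**
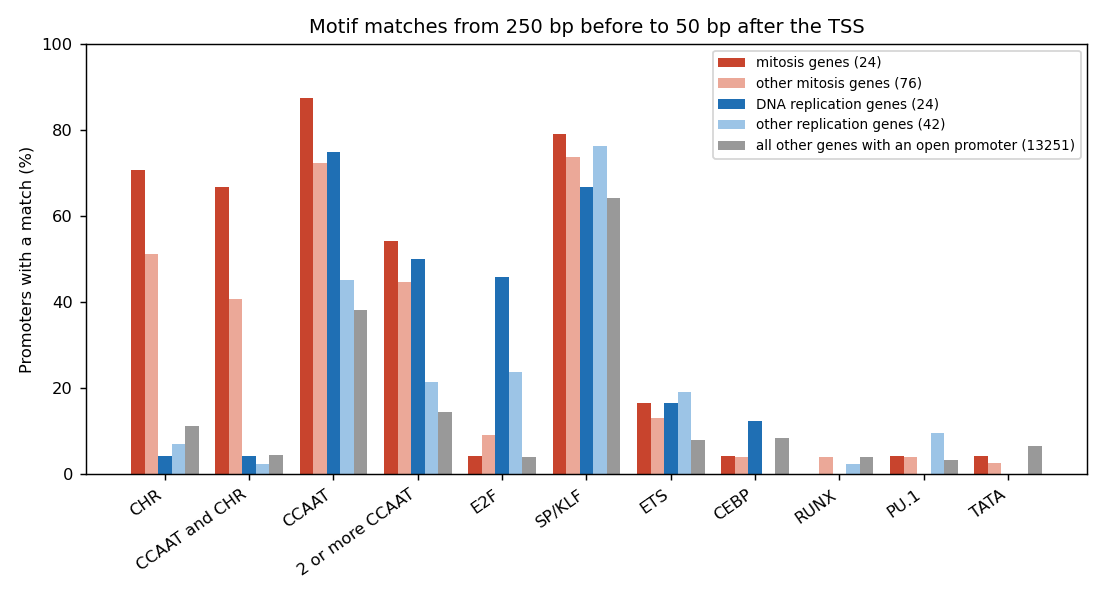
Share of promoters (percent, y axis) with at least 1 match to each motif, from 250 bp before to 50 bp after the TSS, for mitosis genes, other mitosis genes, replication genes, other replication genes and all other genes with an open promoter. The bars for CHR are tallest in the mitosis genes (70.8%) and the other mitosis genes (51.3%), those for E2F in the replication genes (45.8%), and the open genes outside the 48 stand at 11.2% and 4.14%.

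Other genes of both processes, listed by function but with earlier results of these data known, were searched in the same way. CHR matches were found in 39 of 76 other mitosis genes and 3 of 42 other replication genes. E2F matches were found in 10 of the 42 and 7 of the 76. Among the open CpG-rich genes outside the 48, 9.67% had the CHR and 4.94% the E2F letters. The 7 mitosis genes without the exact CHR letters were Ccna2, Ccnb1, Bub1, Cenpa, Cenpe, Birc5 and Tpx2, and their median promoter fold was 15.1, beside 11.6 for the 17 with the letters. Among other open genes the medians with and without CHR were 10.3 and 10.1.

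The place of the CHR letters was also shared. Of the 21 matches in mitosis genes, 15 began within 50 bp of the TSS (71.4%), as did 72.9% of the matches in the other mitosis genes and 22.5% of those in genes outside the 48. The median start was 9 bp before the TSS in the mitosis genes. In Prc1 the match began 4 bp before the TSS, in Cdc20 9 bp before it and in Aurka 3 bp before it. The other 6 matches lay farther upstream: in Nusap1 at 250 bp, in Aurkb at 125 bp, in Mki67 at 134 and 116 bp, and in Top2a and Ccnb2, beside a match nearer the TSS, at 179 and 174 bp. Of the CCAAT boxes, 40 of 44 in mitosis genes and 30 of 37 in replication genes lay within 100 bp of the accessible summit. The share was 65.9% in other open genes and 70.6% in the CpG-rich ones among them. It was 86.7% in the other replication genes and 76.6% in the other mitosis genes. Matches were searched only around the TSS, where most summits lay, and Top2a alone gave 6 of the 44.

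**Figure D4:**
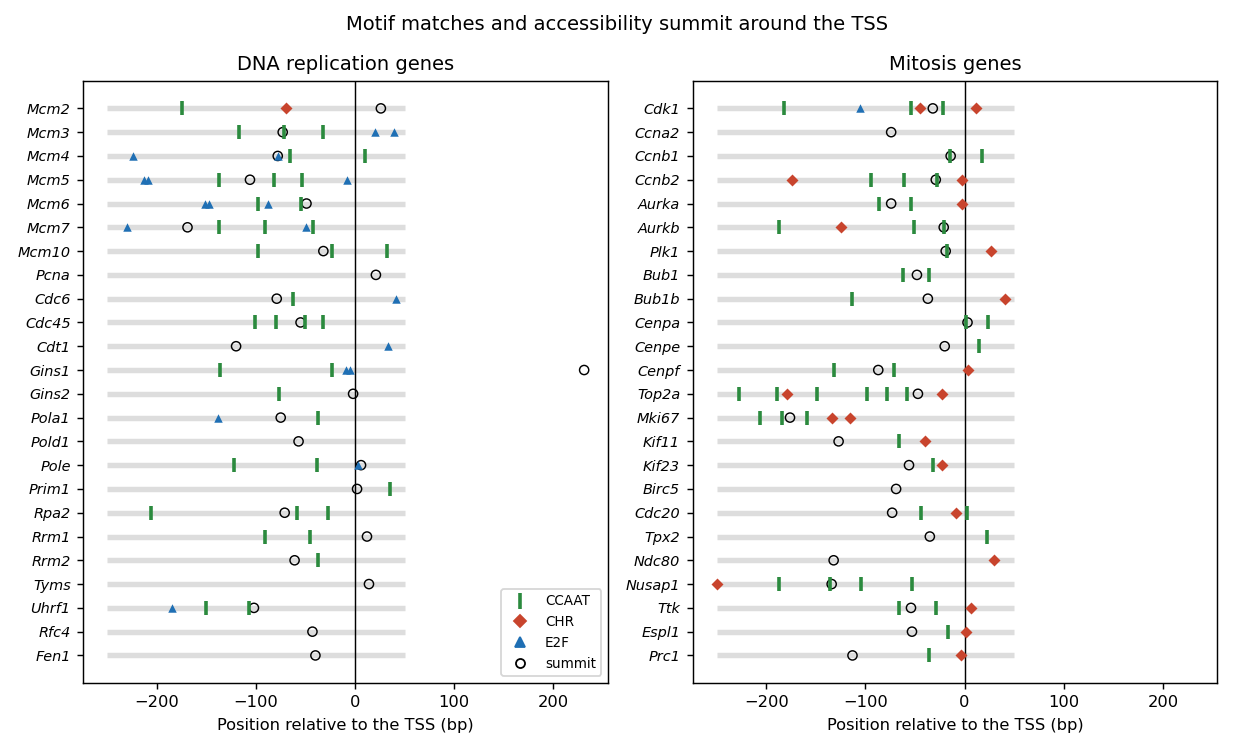
Position in bp relative to the TSS (x axis) of CCAAT (green bars), CHR (red diamonds) and E2F (blue triangles) matches and of the accessibility summit (open circles) in each replication (left) and mitosis (right) gene, with a grey bar for the stretch searched. Red diamonds gather around the TSS on the right and are seen once on the left, in Mcm2, while blue triangles appear in 11 genes on the left and in Cdk1 on the right.

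Several CCAAT boxes in 1 promoter were found in 13 mitosis and 12 replication genes, against 12.9% of all genes. Neighbouring boxes that start 30 to 35 bp apart, a range set after the matches had been seen, were present in 6 mitosis genes (Cdk1, Ccnb1, Ccnb2, Aurka, Aurkb and Nusap1), in 2 replication genes (Cdc45 and Rpa2) and in 1.98% of all genes. Of the genes with at least 2 boxes, these are 46.2% of the mitosis and 16.7% of the replication genes, beside 15.4% of all genes and 19.5% of the other open genes. The median step between neighbouring boxes was 33 bp over 23 steps in the mitosis genes, 46 bp over 19 in the replication genes and 48 bp over all genes. In the other mitosis genes 11 of 34 with at least 2 boxes had the 30 to 35 bp step (32.4%), with a median step of 41 bp. In the other replication genes 2 of 9 did (22.2%), with a median step of 48 bp.

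Motifs of general promoters and of the myeloid lineage were searched too. The SP/KLF letters GGGCGG were present in 19 mitosis and 16 replication genes, against 46.6% of all genes and 64.3% of other open genes. The ETS letters CCGGAAGT were present in 4 genes of each list, against 5.24% of all genes. The TATA letters TATAAA were present in Aurkb alone, against 12.1% of all genes. Of the motifs of myeloid factors, PU.1 (GAGGAAGT) was found in Cenpa alone (3.36% of all genes), C/EBP (TTGCNNAA) in 3 replication genes and 1 mitosis gene (10.2%), and RUNX (TGTGGTT) in none of the 48 (4.97%). The NRF1 (1.25% of all genes) and CTCF (1.45%) motifs were in none of the 48. The CRE letters TGACGTCA were in Mcm5, Cenpe and Ndc80 (2.54%), and the YY1 letters AAGATGGCG in Mcm5 alone (1.97%). Of the 48 genes 41 have a CpG-rich promoter, so open CpG-rich genes outside the 48 are the closer background. Their shares were 74.9% for SP/KLF, 10.1% for ETS, 5.24% for TATA, 2.39% for PU.1, 7.06% for C/EBP and 2.93% for RUNX. Whether the 48 differ from these shares was not tested.

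Distal regions were few at most of the genes, as they were at most other genes. At least 1 was assigned to 14 replication and 13 mitosis genes, against 62.1% of all genes. The replication genes had 37 in all, a mean of 1.54, and the mitosis genes 56, a mean of 2.33, with a median of 1 in both lists and in the other genes, whose mean was 2.75. The territory in which a TSS is the nearest one had a median of 23.5 kb in replication genes, 31.0 kb in mitosis genes and 46.1 kb in the others. Per Mb of that territory, replication genes had 43.1 distal regions, mitosis genes 29.9 and the others 22.6. The mean per gene was thus lower, and the density higher, than in the other genes. The larger lists did not share the higher density throughout. The 42 other replication genes had 28.3 per Mb, but the 76 other mitosis genes had 15.5, below the 22.6. Among the other genes, those with a CpG-rich promoter had 26.3 per Mb. Whether these densities differ beyond chance was not tested. Counts depended on the list and the assignment. Without replicate 1 they fell to 23 for the replication genes and 37 for the mitosis genes. When every region within 50 kb of a TSS was counted the order turned, with 155 for replication and 120 for mitosis genes.

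Mki67 alone held 24 of the 56 distal regions of the mitosis genes (42.9%), where 9.99% of all genes have 8 or more. Of these, 21 lay upstream of the gene, out to 349 kb, 3 lay in its own introns, and 15 were found in both replicates. Its territory spans 624 kb, and its density of 38.5 per Mb was near that of the replication genes. Without Mki67 the other 23 mitosis genes had 32 distal regions, or 25.7 per Mb. This density is no higher than the 26.3 per Mb of genes outside the 2 lists with a CpG-rich promoter. The strongest distal region of Mki67, 349 kb upstream, had a fold of 12.5, above that of the Mki67 promoter.

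Among the replication genes, Rrm2 had the most distal regions, 8, followed by Gins2 with 5, Mcm5 with 4, and Mcm3, Mcm6 and Cdc6 with 3 each. Rrm2, whose promoter was among the weakest, had a region of fold 15.1 at 49.5 kb and another of 13.3 at 11.0 kb. Mcm6 had one of fold 16.1 at 26.99 kb, inside an intron of Dars, its neighbour. Mcm5 had one of 13.5 in its own intron at 10.3 kb and Gins1 one of 13.2 in its own intron at 12.3 kb. In these 4 genes the strongest distal region exceeded the promoter, as it did in the mitosis genes Cdk1, Cenpe and Mki67. That makes 4 of the 14 replication and 3 of the 13 mitosis genes with a distal region, against 58.8% of all such open genes.

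Of the mitosis genes after Mki67, Ccnb2 had 6 distal regions, all in introns of Myo1e, a neighbouring gene, at 28.9 to 70.1 kb from Ccnb2. Cenpf had 5, and Cenpe and Aurkb 4 each. The strongest distal region of the 48 genes was at Cenpe, 20.5 kb upstream, with a fold of 19.2, which is the 99.5th percentile of all distal regions. It was present in both replicates. The distal region of Nusap1, 24.01 kb upstream, had a fold of 15.4 and was also present in both.

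**Figure D5:**
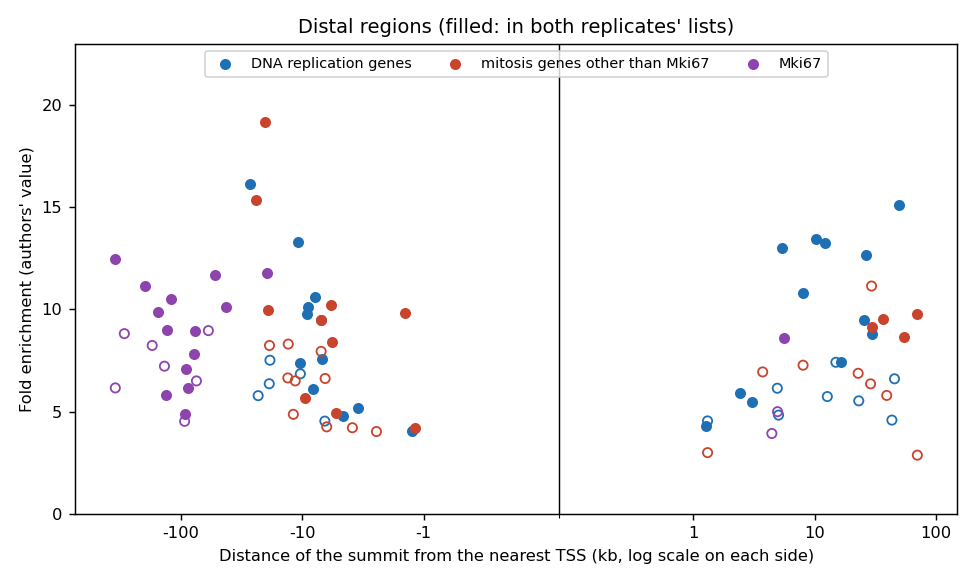
Fold enrichment of each distal region (authors' ratio, y axis) against the distance of its summit from the nearest TSS (kb, log scale on each side, negative upstream), for replication genes (blue), mitosis genes other than Mki67 (red) and Mki67 (purple), filled where both replicates' lists hold the region. The 24 purple points run out to 349 kb upstream, and the highest point, at fold 19.2, belongs to Cenpe.

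Nearest TSS is an assignment by distance and does not show which gene a region acts on. Inside the gene they were assigned to lay 9 of the 37 distal regions of the replication genes and 8 of the 56 of the mitosis genes, beside 42.0% for the other genes. Both replicates held 24 of the 37 and 29 of the 56, against 61.7% for the others. Within 100 bp of the summit, the C/EBP letters were present in 9 of the 37 and 9 of the 56 (16.8% for the others). The PU.1 letters were in 4 and 2 (11.6%), the RUNX letters in 2 and 3 (11.3%) and the CTCF motif in 1 and 4 (3.77%).

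Examples of distal sequence, chosen after their values were seen, show 1 such motif each in capitals over 101 bp centred on the summit, on the plus strand of GRCm38. The Rpa2 region (PU.1 letters, fold 13.03) lies 5.34 kb from the TSS. The Rrm2 region (C/EBP letters, fold 12.7) lies 26.3 kb from its TSS. The Pola1 region (RUNX letters, on the other strand, fold 8.81) lies in an intron of the gene, 29.7 kb from its TSS, and its stretch also holds the PU.1 letters on the other strand, left in lower case.
Rpa2 chr4:132780415-132780515: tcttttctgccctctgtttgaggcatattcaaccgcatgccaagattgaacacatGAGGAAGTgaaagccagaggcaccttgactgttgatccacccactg
Rrm2 chr12:24735255-24735355: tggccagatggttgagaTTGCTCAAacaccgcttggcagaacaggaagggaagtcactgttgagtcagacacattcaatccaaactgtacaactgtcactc
Pola1 chrX:93602356-93602456: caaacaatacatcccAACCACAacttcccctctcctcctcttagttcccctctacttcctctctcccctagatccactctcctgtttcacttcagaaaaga

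Other genes of both pathways were scored by the same rule. All 42 other replication genes and all 76 other mitosis genes had an open promoter, with median percentiles of 71.7 and 71.9. CpG-rich promoters, of which 90.2% are open over all genes, were present in 95.2% of the first list and 97.4% of the second. The highest of the replication list were Rpa1 (fold 16.5), Gins3 (16.1) and Orc2 (16.04), and the highest of the mitosis list Spag5 (20.9), Pttg1 (19.4) and Nuf2 (18.8). Tk1, thymidine kinase, was the lowest, with a fold of 4.397, and was not in the list of replicate 2. Of 23 regulators of these genes (E2F, retinoblastoma, MuvB, MYBL2, FOXM1 and NF-Y), 22 were open, with a median percentile of 39.3, led by Nfyc (14.5), Tfdp2 (14.1) and Nfyb (14.02). The exception was E2f2.

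The D cyclins, their kinases and the cyclin-dependent kinase inhibitors, which control entry into S phase, ranked low. All 12 had an open promoter, but the median percentile was 13.2 and none was in the upper 50%, while the median number of distal regions was 6.5 against 1. Their territories were longer, with a median of 96.9 kb, and per Mb they had 21.7 distal regions against 22.6 in the genes outside the 48. Ccnd1, a D cyclin gene with a fold of 4.25, was open in the series-level list and in neither replicate. Cdk6 had a fold of 3.88 and 19 distal regions. The 15 GMP markers also ranked low, with a median percentile of 18.2 over 14 open promoters. They had a median of 8 distal regions and 67.8 per Mb of territory. Whether the D cyclin list or these markers differ from the 48 was not tested.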

How the data were processed

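ATAC-seq had been run on 2 GMP samples, biological replicates of 1 group. Per the submitters' file list, the deposited lists are in mm10, and the series-level lists come from the reads of both replicates. The authors deposited with each row a fold enrichment (a ratio, denominator not given) and a summit. The aligner, the peak caller and any Tn5 shift are not stated there. Depth is unknown, since the files hold no counts, so no interval was computed. Of the ranked lists, 8 unnamed columns with values of single replicates were not used.

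Overlapping rows (1 bp or more) were joined into regions, keeping the summit and fold of the row with the highest fold. TSSs were those of protein-coding transcripts in GENCODE vM21 on GRCm38.p6. The promoter window was 1000 bp on either side, and distal summits went to the nearest TSS. Motifs were searched as exact letters on both strands, from 250 bp before to 50 bp after the TSS nearest to the promoter summit. Scripts used Python 3.11.15 and numpy 2.4.6 and were tested on simulated data. Members and lists were chosen with earlier results of these data known. Named were the 6 highest and 4 lowest promoters of each list, the 5 genes with most distal regions, shared promoters, and in other lists the 3 highest and any closed. Other members are named as examples from their role, and not every gene of a role is given a fold.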

Additional observations from a re-analysis of the deposited data

How the results depend on the processing

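All 24 replication and all 24 mitosis genes had an open promoter in the looser list, beside 69.1% of the genes outside both lists. The counts were the same in the IDR thresholded list (61.3% of the genes outside), without replicate 1 (56.5%) and without replicate 2 (59.9%). They were also the same with promoter windows of 500 bp (57.9%) and 2500 bp (65.5%). Among the 50% of regions with the highest fold, 19 replication and 24 mitosis genes had one, beside 44.6%. Whether the lists differ from these shares was not tested. In that stricter list the median percentile was 79.9 for the mitosis genes and 62.4 for the 19 replication genes left in it. In the main list the medians were 85.4 and 61.6. Without replicate 2 they were 81.6 and 55.2, and without replicate 1 they were 85.9 and 66.3. The mitosis medians of 79.9 and 81.6 lay farther from 85.4 than the standard deviation between replicates, 3.06. Numbers of distal regions moved with the list and with the assignment. The replication genes had 57 in the looser list, 14 in the stricter one and 155 when every region within 50 kb was counted, with 23 without replicate 1 and 32 without replicate 2. The mitosis genes had 105, 27 and 120 in the same order, with 37 without replicate 1 and 47 without replicate 2. The order of the lists turned when every region within 50 kb was counted. With the 5′-most TSS, CCAAT and CHR together were found in 2 replication genes, against 6.83% of all genes. Within 100 bp of the summit both were found in 0, against 1.96% of open genes. From 500 bp before to 100 bp after the TSS, 9 replication genes had both, against 20.1% of all genes. With CHR variants (CTTGAA or TTTAAA or TTCGAA beside the main letters), chosen after seeing the data, 5 replication and 20 mitosis genes had both, against 14.0% of all genes. E2F was found in 15 replication and 2 mitosis genes in the longer stretch, against 4.70% of all genes. With the 7-letter form, also chosen after seeing the data, 16 replication and 3 mitosis genes matched, against 12.3% of all genes. The cause of these shifts was not tested. No paired analysis was possible because the series has 1 group. Only 2 replicates with 1 donor label, unknown depth and a fold without a stated denominator limit what these ranks can show.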
